A study of Gallus gallus with 2 samples.

Results

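ATF4 and 9 genes known for their answer to amino acid shortage were followed in 2 RNA sequencing libraries of chick limb bud, 1 kept with vehicle and 1 with thalidomide. The members were chosen by name: ATF4, CEBPB, ASNS, PHGDH, PSAT1, CHAC1, SESN2, SLC7A11, VLDLR and cat-1, the last being the symbol that the files give to the cationic amino acid transporter SLC7A1. Of these 10 names, 9 matched a gene symbol, each in a single row, among 17108 annotated genes. No row carries the symbol VLDLR. A row with the symbol VLDL, which RefSeq lists as a synonym of VLDLR, lies between SMARCA2 and KCNV2 on chromosome Z, as VLDLR does in RefSeq, and its values are given beside the members without being counted among them. The choice was made with earlier results of these libraries known, so the values below describe the members and support nothing by their direction.

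ATF4 is a basic leucine zipper transcription factor that sits at the end of the integrated stress response. Shortage of an amino acid, unfolded protein in the endoplasmic reticulum and other stresses switch on kinases that phosphorylate the translation factor eIF2α, which lowers protein synthesis in general but raises translation of ATF4 mRNA. ATF4 protein, often paired with a C/EBP protein, then switches on genes for amino acid synthesis, amino acid uptake and the sensing of nutrients. Because much of this control acts on translation, the level of ATF4 mRNA need not follow the level of ATF4 protein, and only RNA was measured here.

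Limb buds came from chick embryos at Hamburger-Hamilton stage 22, which the labels call day 4, and cut into pieces that were shared between the treatments and kept for 4 h at 37 °C. The vehicle was 5% DMSO and thalidomide, a drug known for limb defects in exposed embryos and for binding cereblon in a ubiquitin ligase, was given at 40 µg/ml. The labels do not say whether the thalidomide pieces also received DMSO, how many embryos were pooled or whether fore and hind limb buds were mixed. With 1 library per treatment no difference has a replicate check, and no test was possible.

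The unit is FPKM, a fragment number divided by transcript length and library depth, which allows levels to be compared between genes. The deposited limits around each FPKM, read here as 95% limits, cover counting and fragment assignment inside a library only, and a difference is called separate below where the limits of both libraries do not overlap. Read as counting error, the limits give about 23361629 fragments for vehicle and 23280002 for thalidomide. FPKM values summed to 426632 and 384280. Limb mesenchyme markers were present, with PRRX1 at 217 FPKM under vehicle and 185 under thalidomide, and both TBX5 of the forelimb (22.5 and 26.4 FPKM) and TBX4 of the hindlimb (16.4 and 18.5 FPKM) were detected. HOXA13, another of the 12 limb mesenchyme markers found, is listed at 0 in both libraries. Blood markers summed to 487 FPKM with vehicle and 640.4 with thalidomide, and limb mesenchyme markers to 1004 and 845. As deposited, 4 of the 7 blood markers that reached 1 FPKM in a library were separate and higher and 0 lower. Of the 11 limb mesenchyme markers that reached it, 6 were separate and lower and 3 higher, TBX5 and TBX4 among the higher ones. Ectoderm markers summed to 109 and 91.1 FPKM, with 3 of 6 that passed this filter separate and lower and 0 higher. Over all genes that passed it, 26.9% were separate and lower and 15.5% higher. These shares went with level. Genes with a mean of 1 to 10 FPKM were lower in 12.2% and higher in 17.2%. Those of 50 to 150 FPKM, TWIST1 among them, were lower in 72.6% and higher in 5.76%. Those of 150 FPKM or more, PRRX1 among them, were lower in 83.9% and higher in 7.21%. The marker counts were not matched for level. They also changed with the scaling of the libraries. With both libraries set to the same FPKM total, 6 blood markers were separate and higher and 0 lower. Limb mesenchyme markers then had 5 lower and 3 higher, and ectoderm markers 1 lower and 0 higher. Over all genes 10.4% were lower and 32.1% higher on that scale. Mitochondrially encoded transcripts took 8.94% and 11.3% of the FPKM total. The part of these shifts in the values below was not tested, and in pieces of whole tissue fewer cells of a type and less RNA per cell cannot be told apart.

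The amino acid transporters and the enzymes ASNS and PSAT1 stood higher in the thalidomide library, while ATF4 itself stood slightly lower as deposited and slightly higher with both libraries set to the same FPKM total. Of the 9 members, 5 had separate intervals with the higher value in the thalidomide library, namely cat-1, SLC7A11, PSAT1, ASNS and CHAC1, and 1, ATF4, had separate intervals with the lower value there. Over the 10905 genes that reached 1 FPKM in a library the shares were 15.5% higher and 26.9% lower, and among the 8644 of them with at least 250 inferred fragments in both libraries, as all members had, 17.6% and 31.9%. For CEBPB, PHGDH and SESN2 the intervals overlapped. Log2 ratios of thalidomide over vehicle were taken with 1 added to each FPKM, and their median was 0.17 over the 9 members, against −0.048 over all genes, whose quartiles were −0.19 and 0.11. All 9 members passed the filter in both libraries. The differences were small except for cat-1, the only member at or past 1.5-fold on the FPKM + 1 scale, as were 0.954% of all genes in that direction.

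**Figure D1:**
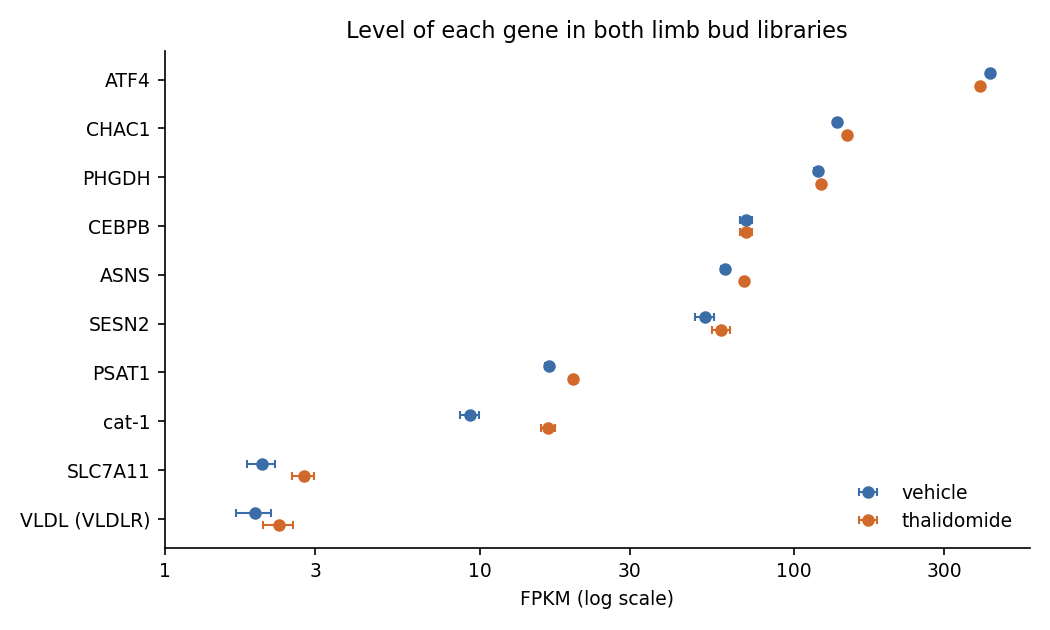
FPKM (log axis) of the 9 members and of VLDL, the row matched to VLDLR by synonym, in the vehicle library (blue) and the thalidomide library (orange). Bars are the deposited 95% limits; they are separate for ATF4, CHAC1, ASNS, PSAT1, cat-1 and SLC7A11, and the shift is widest for cat-1, from 9.31 to 16.5 FPKM.

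The transcription factors were abundant, and as deposited neither had a separate higher value in the thalidomide library. ATF4 (ENSGALG00000012135, chromosome 1 from 50456693 to 50459626 in galGal4, the assembly named in the submitters' processing notes) had 419.5 FPKM with vehicle, with limits of 414 and 425, and 389.9 FPKM with thalidomide, with limits of 385 and 395. It was thus the most abundant member in both libraries, at rank 142 and rank 130 of 16736 genes. The thalidomide value was 0.929 times the vehicle value (95% interval 0.913 to 0.946), a log2 ratio of −0.11 ± 0.01, where ± is the error propagated from the deposited limits; the sign turned when the FPKM totals were made equal, as given further on. This is the member with the most fragments, about 25164 and 24535, so its interval is the narrowest.

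CEBPB (ENSGALG00000008014, chromosome 20 from 14054696 to 14055682) encodes C/EBPβ, a leucine zipper protein that can pair with ATF4 on target genes. It had 70.35 FPKM with vehicle and 70.41 FPKM with thalidomide, a fold of 1.00 with an interval from 0.94 to 1.07. As deposited, the libraries therefore could not be told apart for this gene. The interval holds counting and assignment error only and does not cover the scaling between libraries. With the same FPKM total the fold was 1.11, outside that interval, and CEBPB was separate and higher.

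Among the enzymes of amino acid synthesis, ASNS and PSAT1 were higher with thalidomide and PHGDH was not separable as deposited. ASNS (ENSGALG00000009748, chromosome 2 from 24791550 to 24805274), the asparagine synthetase that is a classical ATF4 target in mammals, had 60.01 FPKM with vehicle and 68.97 FPKM with thalidomide. That is 1.15-fold (1.12 to 1.18), and the upper limit with vehicle, 61.4, lay 6.24 FPKM below the lower limit with thalidomide, 67.6. PHGDH (ENSGALG00000002988, chromosome 8 from 4233645 to 4236981), which takes the first step from glycolysis into serine synthesis, had 118.6 and 121.3 FPKM, or 1.02-fold (0.99 to 1.06). PSAT1 (ENSGALG00000015180, chromosome Z from 37821951 to 37840565), the aminotransferase of the next step, had 16.6 and 19.8 FPKM, or 1.19-fold (1.15 to 1.24).

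The serine pathway genes thus differed in size of change along the pathway. PSPH, the phosphatase of the last step and not a member, had 10.4 FPKM with vehicle and 14.8 FPKM with thalidomide (log2 ratio 0.47 ± 0.10). Of the FPKM summed over PHGDH, PSAT1 and PSPH, PHGDH took 81.5% (95% interval 80.7 to 82.2) with vehicle and 77.8% (77.0 to 78.6) with thalidomide. The share of PSAT1 went from 11.4% to 12.7% and that of PSPH from 7.11% to 9.48%. Shares inside a library do not depend on how the libraries are scaled, but ratios also went with level. All genes of 50 to 150 FPKM, the level of PHGDH, had a median log2 ratio of −0.19. Those of 10 to 50 FPKM, the level of PSAT1 and PSPH, had −0.07. The part of this trend in the shares was not tested.

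The transporters held the largest relative differences of the members. cat-1 (ENSGALG00000017085, chromosome 1 from 174687111 to 174726955), which brings arginine and lysine into the cell, had 9.31 FPKM with vehicle (limits 8.66 and 9.96) and 16.5 FPKM with thalidomide (limits 15.6 and 17.3). This is 1.77-fold (1.63 to 1.93), with a log2 ratio of 0.76 ± 0.06 on the FPKM + 1 scale, and rests on about 810 and 1546 fragments. Its ratio was the 44th highest of 10905 genes, and the 16th highest among loci of at least 300 bases. SLC7A11 (ENSGALG00000009758, chromosome 4 from 28376868 to 28434696), the cystine and glutamate exchanger that supplies cysteine for glutathione, had 2.03 FPKM (1.83 to 2.23) and 2.76 FPKM (2.53 to 2.98). It was 1.36-fold higher with thalidomide (1.20 to 1.54) from about 405 and 598 fragments, so the direction is separate from counting error but the size is known only loosely.

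cat-1 also took a larger share of its own family. SLC7A3, another cationic amino acid transporter, was the most abundant of the family, with 27.4 and 31.9 FPKM (log2 ratio 0.21 ± 0.03), and SLC7A2, a further one, had 0.98 and 0.933 FPKM with overlapping intervals. cat-1 made up 24.7% (23.3 to 26.2) of the summed FPKM of these 3 genes with vehicle and 33.4% (32.1 to 34.7) with thalidomide. SLC7A3 went from 72.7% to 64.7%, and so remained the main transcript of the family in both libraries.

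**Figure D2:**
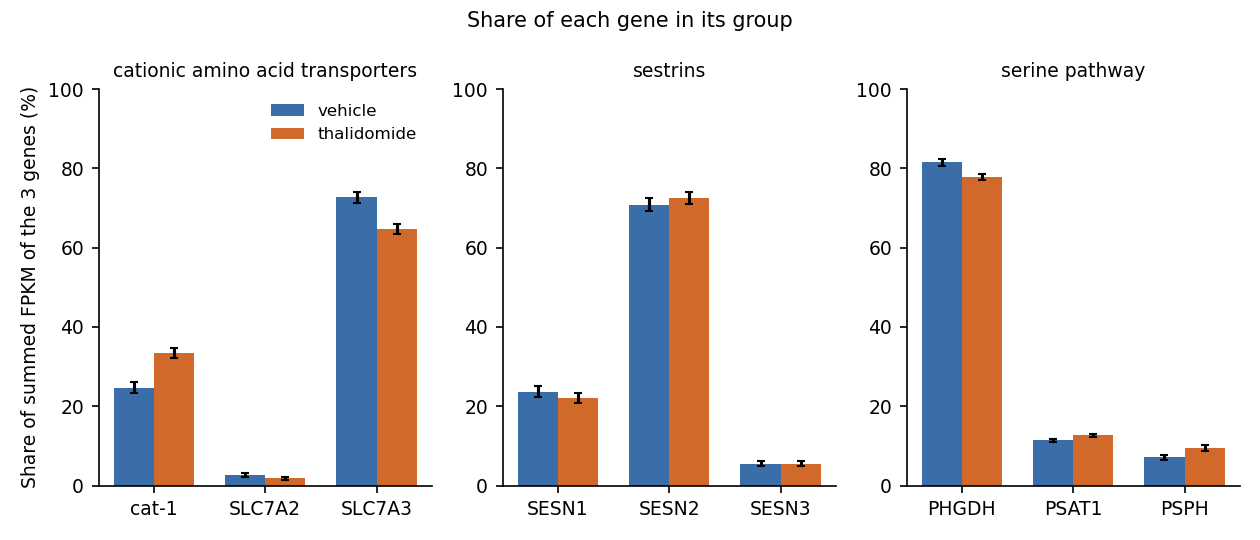
Share of each gene (%) in the summed FPKM of 3 cationic amino acid transporters, 3 sestrins and 3 enzymes of serine synthesis, in the vehicle (blue) and thalidomide (orange) libraries. Bars start at 0 and error bars are 95% intervals propagated from the deposited limits; cat-1 went from 24.7% to 33.4%, whereas the intervals of the SESN2 share overlap.

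CHAC1 and SESN2 act downstream of ATF4 in glutathione breakdown and in nutrient signalling. CHAC1 (ENSGALG00000027874, chromosome 5 from 23730412 to 23732558), a γ-glutamylcyclotransferase that cleaves glutathione, had 136 FPKM with vehicle and 147 FPKM with thalidomide, the second highest level of the members in both. The difference was 1.08-fold (1.05 to 1.11), and the limits of 139 and 145 that face each other did not meet. CHAC2, its relative, had 0.979 and 0.993 FPKM, so CHAC1 made up 99.3% of the pair in each library.

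SESN2 (ENSGALG00000027017, chromosome 23 from 2053807 to 2086993) encodes sestrin 2, a leucine sensor that restrains the growth kinase complex mTORC1. It had 52.0 FPKM (48.5 to 55.5) with vehicle and 58.5 FPKM (54.7 to 62.3) with thalidomide, and these limits overlapped by 0.81 FPKM. The interval of its fold, 1.12 (1.03 to 1.23), lay above 1, so the call by limits is the stricter reading. Its limits were wide for its level: 6.73% of the value with vehicle, against 2.25% for ASNS at a similar FPKM, from about 882 fragments. Another annotated gene, ENSGALG00000026084, overlaps the SESN2 locus over 1047 bases and had 4.22 FPKM with vehicle and 7.04 with thalidomide. Whether counting used strand is not given in the sources used here, so reads of these genes may not be separable. SESN1 and SESN3, the other sestrins, had 17.4 and 17.8 FPKM and 4.06 and 4.50 FPKM, each with overlapping intervals, and the share of SESN2 among the 3 was 70.8% and 72.4%.

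The VLDL row (ENSGALG00000010166, chromosome Z from 26415507 to 26430542) stands for the very low density lipoprotein receptor, which in birds also carries yolk precursors into the oocyte and in mice is raised by ATF4 under endoplasmic reticulum stress. It had 1.93 FPKM (1.69 to 2.17) with vehicle and 2.30 FPKM (2.04 to 2.56) with thalidomide, the lowest level of the set in both libraries. The intervals overlapped, and the fold of 1.19 had an interval from 1.01 to 1.41 on about 259 and 323 fragments. Here too another annotated gene, ENSGALG00000026194, overlaps the locus, but at 0.0634 and 0.161 FPKM.

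The order of the levels was the same in both libraries, from ATF4 through CHAC1, PHGDH, CEBPB, ASNS, SESN2, PSAT1, cat-1 and SLC7A11 to VLDL. Neighbours with overlapping limits were SLC7A11 and VLDL in both libraries, and CEBPB and ASNS in the thalidomide library, where ASNS had come close to CEBPB. With vehicle cat-1 was at 2.22% of the ATF4 level and with thalidomide at 4.23%, a 1.90-fold difference (1.75 to 2.08). SLC7A11 went from 0.484% to 0.707% of ATF4, PSAT1 from 3.96% to 5.09%, ASNS from 14.3% to 17.7% and SESN2 from 12.4% to 15.0%. CHAC1 went from 32.5% to 37.8%, PHGDH from 28.3% to 31.1% and CEBPB from 16.8% to 18.1%. Relative to ATF4, all 8 other members were therefore higher with thalidomide, with CEBPB nearest to no difference at 1.08-fold (1.01 to 1.15). This comparison is free of the scaling between libraries, but it uses ATF4, the member with the lowest ratio, as its base. The ratio of ATF4 was the 6568th highest of 10905 genes, so most genes stood higher on this base, as the 8 members did. Ratios also went with level: all genes of 150 FPKM or more, the level of ATF4, had a median log2 ratio of −0.25. In the bands of the other members that median lay between −0.19 and 0.00. The part of this trend in the percentages of ATF4 was not tested.

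The scaling between the libraries changed the sign for ATF4 and several calls. Centring on the median of all genes raised each log2 ratio by the same small amount and gave 7 members separate and higher and 1 separate and lower, with 20.1% of all genes higher and 20.9% lower. When both libraries were set to the same FPKM total, the median over all genes shifted by 0.13, to 0.082, and 32.1% of genes were higher and 10.4% lower. On that scale all 9 members were separate and higher and their median was 0.31. ATF4 then had 399 FPKM with vehicle and 411 with thalidomide (log2 ratio 0.045 ± 0.013), so its direction was reversed, and CEBPB had 0.15 ± 0.05. cat-1 kept its place as the highest member, at 0.90 ± 0.06.

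**Figure D3:**
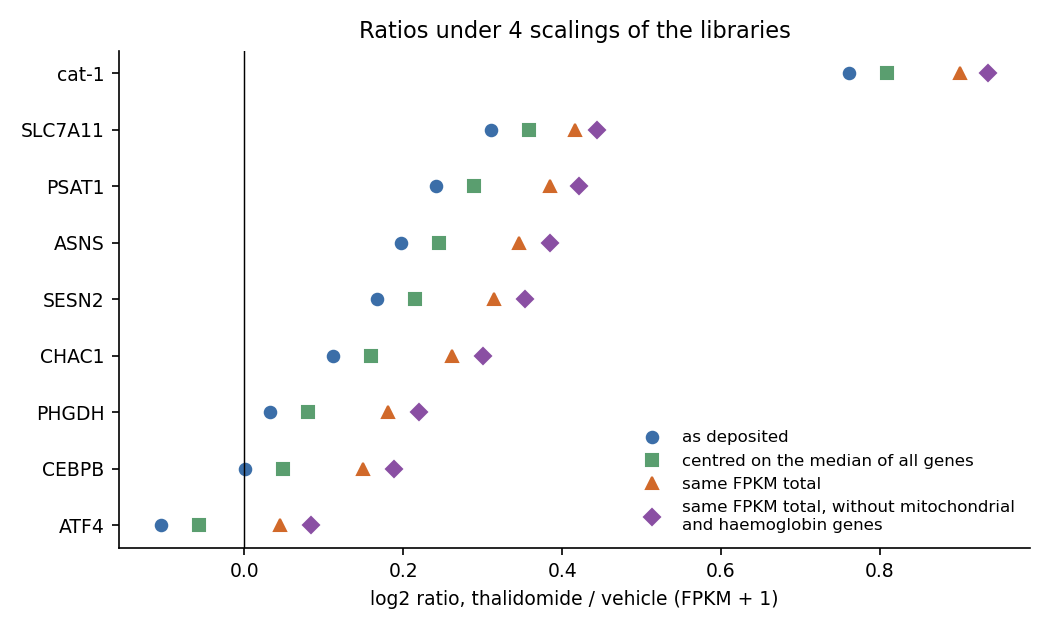
log2 ratio of thalidomide over vehicle (FPKM + 1) of the 9 members, with the libraries as deposited (circles), centred on the median of all genes (squares), set to the same FPKM total (triangles) and set to the same total without mitochondrial and haemoglobin genes (diamonds). ATF4 is at −0.11 as deposited and at 0.045 with the same total, while cat-1 lies at 0.76 or above throughout.

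Ratios in these libraries also went with the level of a gene. Genes with a mean of 1 to 10 FPKM had a median log2 ratio of 0.00, those of 10 to 50 FPKM −0.07, those of 50 to 150 FPKM −0.19 and those of 150 FPKM or more −0.25. The part of this trend in the members' values was not tested. Set beside their own band, ATF4 at −0.11 lay above the upper quartile of its 305 abundant genes, −0.14. Of these genes 83.9% were separate and lower, as ATF4 was, and 7.21% higher. ASNS, CHAC1, PHGDH, CEBPB and SESN2 share the band from 50 to 150 FPKM, where 5.76% of 799 genes were separate and higher and 72.6% lower. The upper quartile there was −0.08, and all 5 lay above it, but only ASNS and CHAC1 were separate and higher. PSAT1 and cat-1 lay above the upper quartile of 0.07 in the band from 10 to 50 FPKM, where 15.6% were separate and higher and 34.3% lower. SLC7A11 at 0.31 and VLDL at 0.17 lay above the upper quartile of 0.16 among genes of 1 to 10 FPKM, where 17.2% were separate and higher and 12.2% lower.

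**Figure D4:**
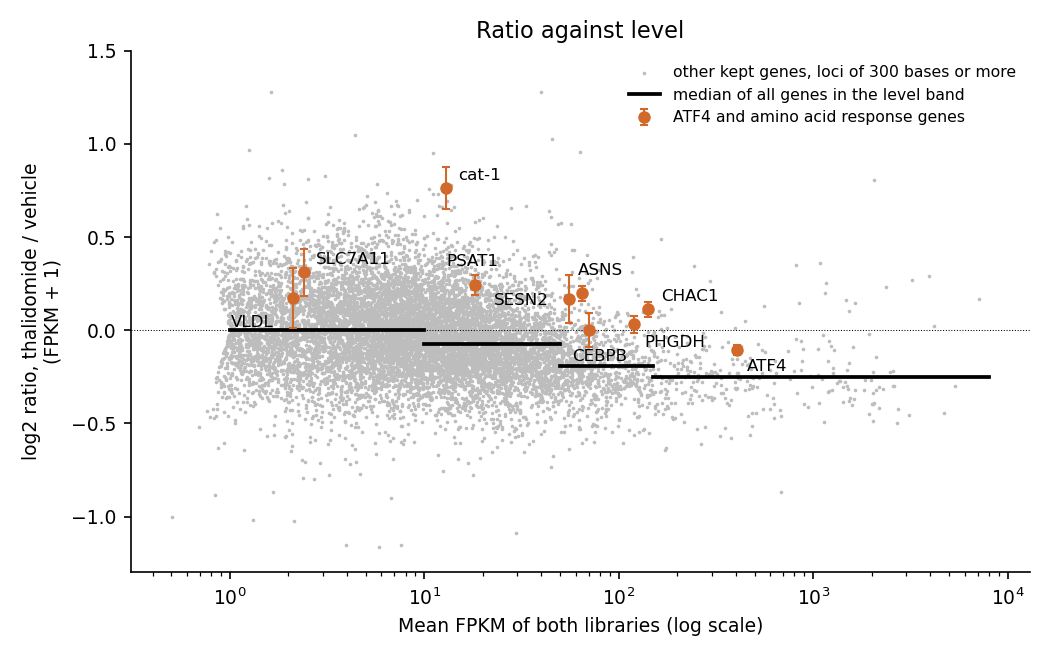
log2 ratio of thalidomide over vehicle (FPKM + 1) against mean FPKM (log axis) for the 9 members and VLDL (orange, bars 1.96 times the propagated error) and for other genes that passed the filter at loci of 300 bases or more (grey; genes outside the axis range are not drawn). Black lines are the medians of all genes by level, which go from 0.00 to −0.25, and every member lies above the line of its level.

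The rest of the pathway was read from 9 lists of named genes. These lists too were chosen with earlier results of these libraries known, so their counts and medians are descriptions only. Of 125 entries, 94 matched a gene and 89 passed the filter. Of these 89, 25 had separate intervals and a higher value with thalidomide and 15 a lower one, and the median log2 ratio was 0.03. With the same FPKM total 90 passed the filter, of which 49 were separate and higher and 6 lower. The shares over all genes were 15.5% and 26.9% as deposited, or 32.1% and 10.4% with the same total. On the FPKM + 1 scale 0 of the 89 were at or past 1.5-fold in either direction, where 0.954% of all genes were higher and 0.972% lower. With the same FPKM total 3 of the 90 were at least 1.5-fold higher and 0 lower, against 2.21% and 0.532% of all genes. Without the added 1, the deposited FPKM of ALDH18A1, described below, differed 1.505-fold. No row carries the symbols DDIT3, TRIB3, ATF5, CEBPG, SLC3A2 or SHMT2, so those partners and targets are not analysed here.

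Upstream of ATF4, the kinases of eIF2α went different ways as deposited. EIF2AK3, the kinase PERK of the endoplasmic reticulum, had 10.7 FPKM with vehicle and 13.8 with thalidomide (log2 ratio 0.34 ± 0.05). EIF2AK4, the kinase GCN2 that senses uncharged tRNA when amino acids run short, had 6.50 and 5.54 FPKM (−0.20 ± 0.04), and GCN1L1, its activator GCN1, had 15.9 and 17.7 FPKM (0.14 ± 0.02). EIF2AK1, the kinase regulated by haem, was the lowest of the list with 17.1 and 13.8 FPKM (−0.30 ± 0.05). EIF2AK2, the remaining kinase of the list, had 3.08 and 3.03 FPKM with overlapping intervals. EIF2S1, which encodes eIF2α itself, had 64.2 and 64.1 FPKM with overlapping intervals. Of 8 measured genes in this list, 2 were separate and higher and 2 separate and lower, and the median was −0.01. With the same FPKM total 4 were higher and 1 lower, with a median of 0.12. The 1 lower gene was EIF2AK1, and the intervals of EIF2AK4 overlapped on that scale. All-gene shares were 15.5% higher and 26.9% lower as deposited, and 32.1% and 10.4% with the same total.

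As deposited, the list of relatives, partners and feedback factors of ATF4 divided evenly. Of 8 measured, 2 were separate and higher and 2 separate and lower, with a median of 0.00. But with the same FPKM total 5 were higher and 0 lower, with a median of 0.14. Over all genes 15.5% were higher and 26.9% lower as deposited, and 32.1% and 10.4% with the same total. CREB1, the cAMP-responsive factor, was highest with 4.87 and 6.39 FPKM (0.33 ± 0.05). The other separate higher gene was CEBPZ, with 8.34 and 10.3 FPKM (0.28 ± 0.05). CEBPZ was listed by its C/EBP symbol and not shown to be a partner of ATF4, so the even count rests in part on it. ATF3, a stress factor that ATF4 can switch on, was lowest with 53.8 and 46.9 FPKM (−0.20 ± 0.03). All genes with a mean of 50 to 150 FPKM, as ATF3 had, had a median of −0.19.

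Amino acid transporters outside the members were mostly higher in the thalidomide library. Of 9 that passed the filter, 6 were separate and higher and 0 separate and lower, with a median of 0.26, where 15.5% of all genes were higher and 26.9% lower. With the same FPKM total 7 were higher and 0 lower, against 32.1% and 10.4%, and the median was 0.40. SLC43A2, a carrier of large neutral amino acids, was highest with 9.42 and 13.1 FPKM (0.44 ± 0.06). SLC7A5, the light chain of the leucine transporter LAT1, had 30.3 and 38.9 FPKM (0.35 ± 0.05), and SLC38A2, a glutamine and alanine transporter induced by amino acid shortage in mammals, had 62.95 and 75.3 FPKM (0.26 ± 0.04). SLC36A4 was lowest with 1.39 and 1.10 FPKM and overlapping intervals.

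As deposited, the enzymes went in both directions, beside 15.5% of all genes separate and higher and 26.9% lower. Of 9 genes for serine, glycine, proline and folate-linked carbon metabolism, 3 were separate and higher and 4 separate and lower (median 0.01). With the same FPKM total 3 were higher and 1 lower (median 0.14), and among genes of at least 5 FPKM the deposited values had a median of 0.16. The higher ones were PSPH, the mitochondrial folate enzyme MTHFD2 with 104.8 and 130.2 FPKM (0.31 ± 0.02), and ALDH18A1, the first enzyme of proline synthesis, with 40.3 and 60.6 FPKM (0.58 ± 0.02). AMT, of the glycine cleavage system, was lowest with 34.5 and 25.5 FPKM (−0.42 ± 0.07). Also separate and lower were SHMT1 (−0.28 ± 0.07), PYCRL (−0.23 ± 0.07) and MTHFD1 (−0.13 ± 0.03). Among 10 genes for glutamate, glutamine and cysteine metabolism, 1 was separate and higher, the alanine aminotransferase GPT2 with 11.3 and 13.7 FPKM (0.26 ± 0.04). In the same list 3 were separate and lower, the lowest being the mitochondrial aspartate aminotransferase GOT2 with 121 and 93.9 FPKM (−0.37 ± 0.03), and the median was −0.01. Equal FPKM totals gave 3 of this list higher and 2 lower (median 0.12), where 32.1% of all genes were higher and 10.4% lower.

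The aminoacyl-tRNA synthetases, which charge tRNAs and include many ATF4 targets, had a median of 0.00 over 12 genes, with 3 separate and higher and 2 separate and lower. Set to equal FPKM totals, 8 were higher and 1 lower, and the median was 0.14. For all genes the shares higher and lower were 15.5% and 26.9% as deposited, and 32.1% and 10.4% with equal totals. YARS, for tyrosine, was highest with 53.3 and 62.97 FPKM (0.24 ± 0.03) and MARS, for methionine, lowest with 91.8 and 78.0 FPKM (−0.23 ± 0.02). In the list of sestrins and amino acid sensing by mTORC1, 3 of 15 were separate and higher and 1 separate and lower (median 0.05), or 9 and 0 with the same FPKM total (median 0.18). DEPDC5, a subunit of the GATOR1 complex that restrains mTORC1, was highest with 3.11 and 4.25 FPKM (0.35 ± 0.05). The other separate higher genes were WDR59, with 7.18 and 9.34 FPKM (0.34 ± 0.05), and RRAGC, with 7.08 and 8.83 FPKM (0.28 ± 0.05). EIF4EBP1, the translation repressor that mTORC1 inactivates and an ATF4 target in mammals, had 228 and 199 FPKM (−0.19 ± 0.03). Over all genes the median was −0.25 from 150 FPKM, the level of EIF4EBP1. It was −0.19 from 50 to 150 FPKM, the level of YARS and MARS.

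Receptors related to VLDLR had a median of 0.10 over 8 genes, with 3 separate and higher and 1 separate and lower, or 6 and 1 with the same FPKM total (median 0.22). Among genes of at least 5 FPKM the sign turned, with a median of −0.016. LRP4 was highest with 3.37 and 4.68 FPKM (0.38 ± 0.04), and LRP8, the closest relative of VLDLR and like it a receptor for reelin, had 2.58 and 2.98 FPKM (0.15 ± 0.05). RELN, which encodes reelin itself, was lowest with 6.82 and 5.08 FPKM (−0.36 ± 0.03). Of 10 further genes known to respond to ATF4, 2 were separate and higher and 0 separate and lower (median −0.04), or 4 and 0 with the same FPKM total (median 0.10). Separate as deposited were ERO1L, an oxidase that helps form disulphide bonds in the endoplasmic reticulum, with 14.7 and 20.6 FPKM (0.45 ± 0.05), and the secreted stanniocalcin STC2, with 69.5 and 84.5 FPKM (0.28 ± 0.04). ATG12, an autophagy gene, was lowest with 9.43 and 7.93 FPKM and overlapping intervals. Beside the counts of both lists stand all-gene shares of 15.5% higher and 26.9% lower, or 32.1% and 10.4% with the same total.

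**Figure D5:**
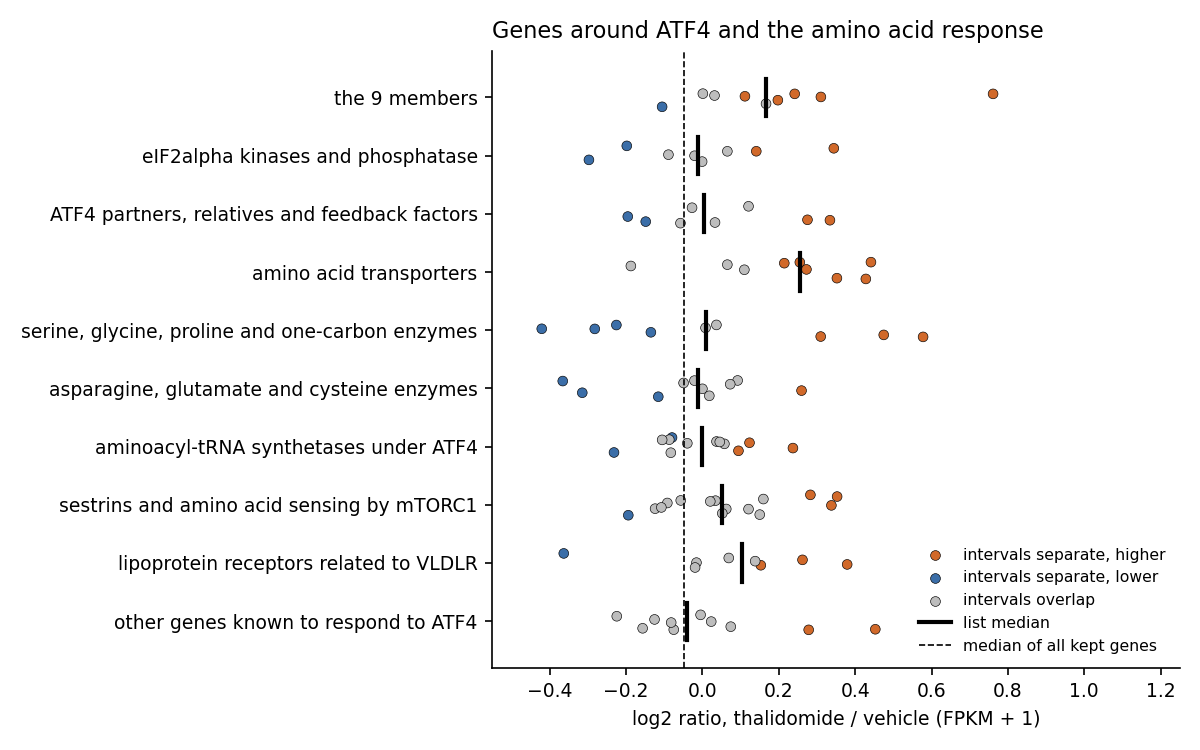
log2 ratio of thalidomide over vehicle (FPKM + 1) for the 9 members (top line) and for 9 lists of related genes, 1 point per gene, with orange for separate intervals and a higher value, blue for separate intervals and a lower value and grey for overlapping intervals. Thick bars are list medians and the dashed line is the median of all genes, −0.048; the amino acid transporters have the highest list median, 0.26, and the vertical scatter of points has no meaning.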

How the data were processed

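Each library had been turned by the authors into a gene-level table of FPKM values with lower and upper limits, per the file headers. Cufflinks 2.2.1, Cuffdiff, STAR 2.4.2a, bcl2fastq and galGal4 appear, without roles, in the submitters' processing notes; annotation release, read length and strand setting are not stated there. Count tests do not suit FPKM and were left out. Rows sharing a symbol, ignoring case, were summed (limits added in quadrature), leaving 16736 genes, of which 10905 reached 1 FPKM in a library and were kept. Log2 ratios were taken after adding 1 to FPKM, which understates the change of low genes, and errors propagated by reading the distance to the upper limit as 2 SD. Fragment numbers were inferred from the same distance and may be too low where assignment is uncertain. Locus starts were raised by 1 to count from 1. Fold intervals use 1.96 times the propagated error. The interval calls were run on simulated counts that held counting error only, the error that the limits were read as. That run held no spread between libraries, so it checks the calculation and not the differences reported here. Python 3.11.15 and pandas 2.3.3 were used. Members and lists were chosen with earlier results of these data known. Named genes are all members, the extremes of each list and a fixed set of key genes, with some others beside them, such as CEBPZ. Some list entries were matched through RefSeq synonyms (GRCg7b table, names only); NCK1 was not, since its synonym is the name of a relative. Alternatives were a pseudocount of 0.1, no filter or 5 FPKM, 3 scalings and leaving out loci under 300 bases; added after the values were seen were counting VLDL, leaving out cat-1 and a minimum of 250 fragments.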

Additional observations from a re-analysis of the deposited data

How the results depend on the processing

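With the same FPKM total, and with the same total without mitochondrial and haemoglobin genes, 9 and 9 members were separate and higher and 0 and 0 lower; the member median was 0.31 and 0.35, that of all genes 0.082 and 0.12, and that of the pathway lists 0.17 and 0.20. The shares of all genes were 32.1% and 37.7% higher and 10.4% and 7.73% lower, and pathway list genes 49 and 55 higher and 6 and 4 lower. ATF4 was reversed, at 0.045 and 0.084. With no filter 17.9% of all genes were lower. Counting VLDL gave a member median of 0.17, and leaving out cat-1 gave 0.14. A pseudocount of 0.1, the 5 FPKM filter, centring and leaving out short loci kept the counts of separate members within 1.5 times the main count. Single members did change. SLC7A11 did not pass the 5 FPKM filter, which left 4 members separate and higher. With centring PHGDH and SESN2 became separate and higher, and ATF4 moved to −0.057 and stayed separate and lower. No paired analysis was possible because each treatment has 1 library. At 5 FPKM the median of the receptors related to VLDLR turned to −0.016, and that of the serine, glycine, proline and folate enzymes moved to 0.16. The fewest fragments lay behind VLDL and SLC7A11.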
